A study of Mus musculus with 3 samples.

Results

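Granins and the enzymes that process neuropeptides were measured by RNA sequencing in primary hippocampal neurons of wild-type (WT) mice. The genes were the 5 granin-family cargo genes Chga, Chgb, Scg2, Scg3 and Vgf, the convertase-binding protein genes Pcsk1n and Scg5, and the enzyme genes Pcsk1, Pcsk2 and Cpe, listed by name; all 10 were found among 47593 gene rows. The hippocampus is a brain region of memory formation, and 3 libraries, replicates 1 to 3 of 1 group, were available. Neurons grew in Neurobasal, to which B27 (10%) and GlutaMAX (1%) had been added, in an incubator at 37 °C and 5% CO2, and then received fresh medium with B27 and penicillin-streptomycin, for 24 h by the design text of the series. Neurons given apoE particles, which the same text names, were not analysed here, so no treatments were compared. The labels leave unsaid if each library had its own culture or animal, so p-values measure only the spread between these libraries, which can be technical.

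Regulated secretion in neurons runs through dense-core vesicles, which carry neuropeptides and neurotrophins. Granins are acidic proteins that aggregate with calcium in the Golgi network, help to load these vesicles and are themselves cut into peptides. The convertases encoded by Pcsk1 and Pcsk2 cut prohormones after pairs of basic residues, and carboxypeptidase E, encoded by Cpe, then trims the basic residues left at the end. Pcsk1n encodes proSAAS, an inhibitor of the Pcsk1 product, and Scg5 encodes 7B2, a chaperone that the Pcsk2 product needs to become active.

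Expression was deposited as 1 log2 value per gene and library, in which differences between libraries are shrunk towards the gene's mean. The reads behind these values were recovered, and they summed to 18780572, 18683966 and 18885652 in replicates 1, 2 and 3. A level is given as CPM, the expression per 1000000 of the library's sum over genes. Between genes, levels are compared only per kilobase of annotated exon. Each level is the mean ± SD of the deposited values over the libraries (n = 3), followed where needed by the SD in recovered reads, which lack the shrinkage. An SD of deposited values given alone can understate the spread between libraries, above all for genes with few reads. At 3 reads, the floor for a gene without reads in a library was 0.16 CPM, and such floors cover counting error only.

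The cultures carried the defining genes of neurons. All 12 pan-neuronal markers were detected at 1 CPM or more in each library, with a median level of 69.4 CPM per kilobase and Mapt, which encodes the microtubule protein tau, highest at 270 ± 3.6. All 8 excitatory markers (median 24.0, with Neurod6, a transcription factor gene, highest at 189 ± 2.6) and all 8 inhibitory markers (median 20.4, with Gad1, for a GABA-making enzyme, highest at 44.6 ± 0.25) were detected as well. Astrocyte markers were also detected, 8 of 8, with a median of 22.3 and the glutamate transporter gene Slc1a3 highest at 115 ± 0.62. They summed to 0.190% to 0.191% of the expression in every library. Oligodendrocyte lineage markers had 6 of 8 detected, led by Olig1 at 73.6 ± 2.2. Of 8 microglial markers only C1qa was detected (1.72 ± 0.0064), and of 8 endothelial and mural markers Pdgfrb (1.68 ± 0.016) and Kdr, while Cldn5 and Kcnj8 had no reads. In recovered reads the SDs were 0.52 for C1qa and 0.25 for Pdgfrb. Since these were bulk cultures, fewer cells of a type and less RNA per cell cannot be told apart, and which cells the granin RNA came from was not tested.

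Short promoter stretches are shown for 4 of the genes because they hold, close to the RefSeq start of transcription, a cAMP response element, the site at which factors of the CREB family bind and through which several granin genes are known to respond to activity. RefSeq promoters on GRCm38.p6, from 250 bases before to 50 after the annotated start, were at hand for 8 of the 10 genes. The palindrome TGACGTCA was found in 3 of these 8, Chgb, Scg2 and Pcsk1, in 1.79% of all 32851 promoters in the table and in 3.04% of those of detected genes. The variant TGACGTAA, searched on both strands, was found in Chga, in 0.499% of all promoters and in 0.814% of those of detected genes. The capitals in the following 60 bases, printed 5′ to 3′ on the gene's strand, mark the element.
Chga, chr12:102554867-102554926, plus strand: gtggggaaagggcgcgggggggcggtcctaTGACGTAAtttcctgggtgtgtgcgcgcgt
Chgb, chr2:132781540-132781599, plus strand: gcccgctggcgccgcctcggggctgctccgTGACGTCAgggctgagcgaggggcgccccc
Scg2, chr1:79440065-79440124, minus strand: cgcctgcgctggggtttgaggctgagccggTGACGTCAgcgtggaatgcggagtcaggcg
Pcsk1, chr13:75089749-75089808, plus strand: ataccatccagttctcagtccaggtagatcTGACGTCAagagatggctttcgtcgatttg

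The element began 44 bases before the RefSeq start in Chga, 72 in Chgb, 68 in Scg2 and 78 in Pcsk1. The GENCODE gene spans given with the levels start further upstream for Chgb, Scg2 and Pcsk1, and further downstream for Chga. The element lies inside the span in Chgb and Scg2, and before its start in Pcsk1 and Chga. No match for either spelling was found in the windows of Scg3, Scg5, Pcsk2 and Pcsk1n. Genes with the same element differed widely in level, from 36.5 ± 0.74 CPM per kilobase for Scg2 and 26 ± 0.22 for Chgb to 0.582 ± 0.0052 for Pcsk1. A sequence match is a description and says nothing of occupancy.

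All 10 genes were detected at 1 CPM or more in each library, as were 59.2% of 21065 protein-coding gene rows. Their median level was 32.2 CPM per kilobase, against 6.65 for the 12472 protein-coding rows detected. They spanned a 1006-fold range, from Cpe at the top to Pcsk1 at the bottom. Together they held 0.25%, 0.241% and 0.248% of the expression in replicates 1, 2 and 3, and 0.252%, 0.238% and 0.25% of recovered reads. Cpe alone made up 62.1% (SD 0.34) of the sum of the 10 genes.

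**Figure D1:**
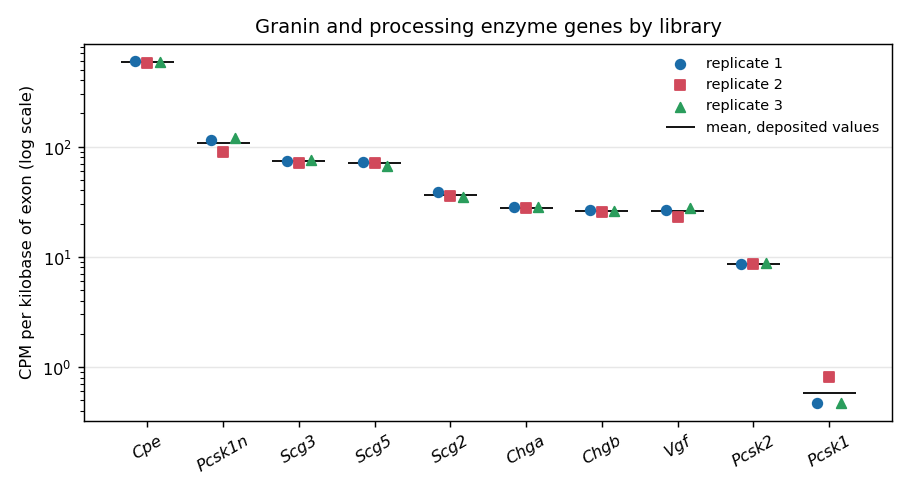
Levels of the 10 genes per library. The y axis is CPM per kilobase of exon on a log scale; coloured symbols are replicates 1 to 3 from recovered reads, and each bar is the mean of the deposited values. Cpe stood at about 586 and Pcsk1 at about 0.58, and the libraries spread visibly apart for Pcsk1n and Pcsk1.

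Among the cargo genes, Scg3 was highest. Scg3 encodes secretogranin III, which binds chromogranin A and cholesterol-rich membrane in the forming vesicle. Its deposited log2 values were 11.89, 11.86 and 11.91 in replicates 1, 2 and 3, and its recovered reads 3830, 3647 and 3896. The libraries lay close together, with replicate 2 lowest. The level was 73.7 ± 1.13 CPM per kilobase (SD 2.14 in recovered reads), above 97.2% of the 16685 protein-coding rows with a value above 0. Scg3 lies on chromosome 9 from 75643189 to 75684056 (GRCm38, minus strand), and its longest coding transcript has 12 exons.

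Scg2 encodes secretogranin II, the precursor of secretoneurin. It had log2 values of 10.78, 10.74 and 10.73 and 1818, 1681 and 1669 reads, with replicate 1 above the other libraries. Its level of 36.5 ± 0.74 CPM per kilobase (SD 1.78 in recovered reads) was the second among the cargo genes by exon length, whereas by transcript or coding length Chga stood above it. The gene lies on chromosome 1 from 79434669 to 79440120 (minus strand) and has 2 exons.

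Chga, Chgb and Vgf lay close together per kilobase of exon. Chga encodes chromogranin A, and its log2 values were 10.50, 10.49 and 10.51 with 1449, 1415 and 1473 reads. Chgb, for chromogranin B, had 10.39, 10.38 and 10.38 with 1369, 1312 and 1336 reads. For both, the 3 libraries were nearly level, with replicate 2 lowest. Vgf, whose product is cut into peptides that act on energy balance and synapses, had 10.50, 10.44 and 10.53 with 1489, 1284 and 1548 reads, and replicate 2 stood below the other libraries. Per kilobase these genes reached 27.9 ± 0.17 for Chga, 26 ± 0.22 for Chgb and 25.8 ± 0.86 for Vgf, with SDs of 0.415, 0.517 and 2.36 in recovered reads. By the length of the longest coding transcript they stood at 40.9, 26 and 27, and by coding length at 55.4, 35.1 and 41.4, so that Chga stood apart from the others on these scales. Chga lies on chromosome 12 (102554969 to 102565028), Chgb on chromosome 2 (132781278 to 132795079) and Vgf on chromosome 5 (137026392 to 137033351), all on the plus strand.

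The convertases were far apart. Pcsk2 had log2 values of 10.31, 10.32 and 10.33 and 1269, 1273 and 1298 reads, a level of 8.62 ± 0.017 CPM per kilobase (SD 0.0733 in recovered reads). Its libraries were the most even of the 10 genes, with a coefficient of variation (CV) of 1.29% in recovered reads, below the 2.80% that counting error alone gives. Pcsk1 had log2 values of 5.93, 5.95 and 5.93, which look level, but 49, 85 and 50 reads, so that replicate 2 held the most. In CPM from recovered reads these were 2.61, 4.55 and 2.65. Its level was 0.582 ± 0.0052 CPM per kilobase (SD 0.198 in recovered reads), above 30.1% of the protein-coding rows with a value above 0. Pcsk2 lies on chromosome 2 from 143546156 to 143816285 and Pcsk1 on chromosome 13 from 75089826 to 75134861, both on the plus strand.

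In log2 units and within a library, Pcsk2 exceeded Pcsk1 by 3.07 ± 0.009 with 0.5 CPM per kilobase added to each level, an 8.42-fold ratio (SD 0.253 in recovered reads). Without the added 0.5, which is close to the level of Pcsk1 itself, the difference was 3.89, and with coding length it was 4.22. Furin, the convertase of the general secretory pathway, lay between them at 3.01 ± 0.043 CPM per kilobase. Pcsk1 was below Furin by a log2 ratio of −1.70 ± 0.025, and Pcsk2 above it by 1.38 ± 0.016, each in 3 of 3 libraries. In recovered reads the SDs of these ratios were 0.336 and 0.084. The value for Pcsk1 was −2.37 with nothing added, −0.52 with 5 added, and −2.58 and −2.64 with transcript and coding length. Of the other convertase genes, Pcsk7 stood at 3.31, Pcsk6 at 1.62, Pcsk5 at 1.37, Pcsk4 at 0.876 and Mbtps1 at 6.23 CPM per kilobase. Per kilobase of exon, Pcsk2 was thus the highest and Pcsk1 the lowest of the convertase genes named here. Without length scaling Pcsk4 stood lower, at 2.59 CPM against 3.26 for Pcsk1 (SD 0.233 and 1.11 in recovered reads). Convertase genes outside the 14 pairs were set side by side without a test.

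The binding proteins of both convertases were well above their partners. Pcsk1n had log2 values of 12.15, 11.97 and 12.19 and 4697, 3658 and 4933 reads, with replicate 2 clearly lowest. Its level was 107 ± 8.45 CPM per kilobase (SD 16 in recovered reads), above 98.3% of protein-coding rows with a value above 0. Pcsk1n exceeded Pcsk1 by 6.63 ± 0.12 log2 units (99.2-fold; SD 0.474 in recovered reads), by 7.52 with nothing added and by 4.33 with 5 added. Scg5 had log2 values of 11.03, 11.02 and 10.99 and 2127, 2085 and 1991 reads, with replicate 3 lowest. Its level was 70.2 ± 1.14 CPM per kilobase (SD 2.63 in recovered reads), and it exceeded Pcsk2 by 2.95 ± 0.026, a 7.75-fold ratio. The log2 ratio was 2.26 with coding length and 0.69 without length scaling, since the exons of Pcsk2 sum to 7910 bases and those of Scg5 to 1569. Pcsk1n lies on chromosome X from 7919822 to 7924410 (plus strand) and Scg5 on chromosome 2 from 113776362 to 113829121 (minus strand).

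Cpe was the highest of the genes. It had log2 values of 14.82, 14.79 and 14.82 and 29207, 27937 and 29007 reads, with replicate 2 slightly below the others. Its level of 586 ± 7.92 CPM per kilobase (SD 11.7 in recovered reads) was the 19th highest among protein-coding gene rows. Cpe exceeded Pcsk2 by 6.01 ± 0.019 log2 units (64.3-fold) and Pcsk1 by 9.08 ± 0.026 (542-fold with 0.5 added), or 9.97 log2 units with nothing added. The SDs of the ratios to Pcsk2 and Pcsk1 in recovered reads were 0.034 and 0.28. With coding length the ratio to Pcsk2 was 4.89. Cpe exceeded Cpd, the carboxypeptidase of the general secretory pathway, by 5.40 ± 0.034 (42.3-fold). Pam, which amidates peptide ends in the last step of maturation, stood at 7.76 ± 0.12 CPM per kilobase, and Cpe exceeded it by 6.15 ± 0.029 (71.0-fold), or by 4.97 and 5.07 log2 units with transcript and coding length. The next genes in level among all protein-coding rows were the ribosomal protein gene Rps3a1 above Cpe (622 CPM per kilobase) and the neuronal membrane protein gene Gpm6a below it (583). Cpe lies on chromosome 8 from 64592542 to 64693054 (minus strand).

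**Figure D2:**
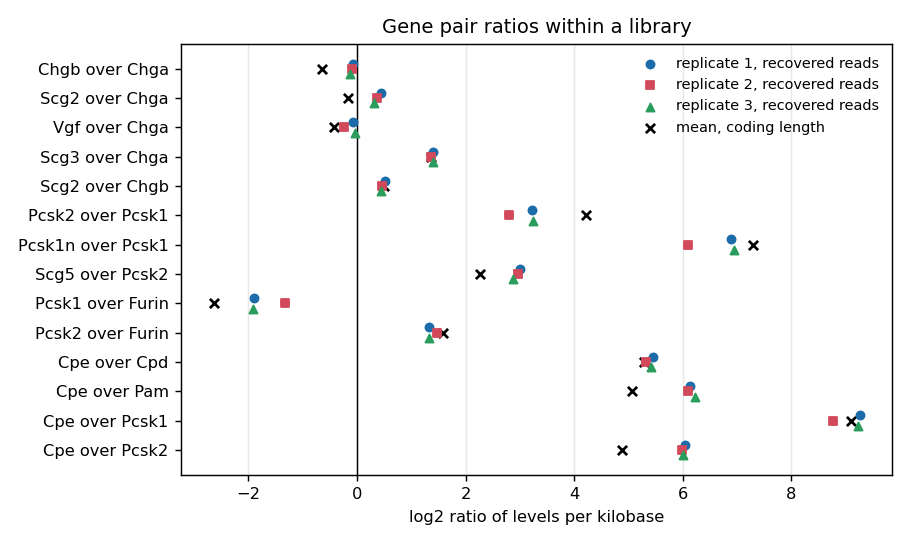
Log2 ratios of levels per kilobase for the 14 gene pairs, with 0.5 CPM per kilobase added. Coloured symbols are the 3 libraries from recovered reads and crosses the mean with coding length in place of exon length; the ratios with Cpe over an enzyme gene lie between about 5.33 and 9.27 in single libraries, and Scg2 over Chga changes side with the length used.

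Of the 14 gene pairs, each kept 1 direction in 3 of 3 libraries, on the deposited scale and with recovered reads alike. The two-sided exact sign-flip permutation test gave p = 0.25 for every pair (adjusted p = 0.25 over the 14), the lowest value that 3 libraries can reach, so no pair could pass a threshold of 0.05. Scg3 exceeded Chga by 1.38 ± 0.013 log2 units. Scg2 exceeded Chgb by 0.48 ± 0.018. Per kilobase of exon, Chgb lay at −0.10 ± 0.010 and Vgf at −0.11 ± 0.039 against Chga, with SDs of 0.029 and 0.112 in recovered reads. On that scale the distance of Vgf from Chga was about as large as the spread. With transcript and coding length Chgb lay at −0.64 and −0.65 and Vgf at −0.59 and −0.42, beyond that spread, and without length scaling Vgf lay at −0.01, with its libraries on both sides of 0. Scg2 exceeded Chga by 0.38 ± 0.028 per kilobase of exon but lay below it, at −0.16, when the longest coding transcript or the coding sequence set the length.

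Ordered by level per kilobase, the genes ran Cpe, Pcsk1n, Scg3, Scg5, Scg2, Chga, Chgb, Vgf, Pcsk2 and Pcsk1. Neighbours in this order that did not differ beyond their spread were Scg3 and Scg5 (0.07 log2 units, SD 0.08 in recovered reads) and Chgb and Vgf (0.02, SD 0.12, with Chgb higher in 1 of 3 libraries). With transcript length the sign turned for Scg3 over Scg5 (−0.11), Scg2 over Chga (−0.17) and Chgb over Vgf (−0.05). The largest steps were Pcsk2 over Pcsk1 at 3.94 ± 0.46, Cpe over Pcsk1n at 2.46 ± 0.20 and Vgf over Pcsk2 at 1.58 ± 0.13 in recovered reads. For Vgf over Pcsk2 the step was 0.90 with transcript length and 0.21 with coding length.

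The remaining genes of the pathway were set beside these. Of 18 other peptide processing enzymes 15 were detected, with a median of 3.17 CPM per kilobase. The highest were Ctsl, a lysosomal protease that can also process prohormones (14.9 ± 0.05), Qpct, which forms the pyroglutamate end of some peptides (13.6 ± 0.043), and Cpd (13.4 ± 0.14). Cpz and Cpn1 were among those below 1 CPM in every library, with 5 and 3 reads in all. Per kilobase of exon, none of these enzyme genes reached the level of any granin-family cargo gene. Without length scaling, Cpd (111 CPM), Ctsl (96.8) and Pam (92.3) lay above Scg2 (91.7), Chga (77.0), Vgf (76.6) and Chgb (71.3). Pam and Scg2 did not differ beyond their spread (SD 3.48 and 4.48 in recovered reads), and in replicate 1 Scg2 had more reads (1818 against 1776). Among the cargo genes, only Scg3 (202) lay above Cpd, Ctsl and Pam on that scale.

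Genes of dense-core vesicle assembly and release had 20 of 23 members detected and a median of 9.16. The highest were the small GTPase genes Rab3a (157 ± 5.2 CPM per kilobase), which acts in vesicle docking, and Rab2a (116 ± 1.4), which acts in vesicle formation, and the synaptotagmin gene Syt4 (111 ± 2.1), whose product sits on dense-core vesicles. Rab27a, Sytl5 and Sytl4, genes of vesicle tethering in endocrine cells, had 23, 21 and 13 reads in all and lay below 1 CPM in each library. Rab27b, the close relative of Rab27a, was detected at 2.46 ± 0.016 CPM per kilobase.

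The precursors that these enzymes cut were unequal. Of 20 neuropeptide and neurotrophin precursor genes 14 were detected, 13 in recovered reads, with a median of 1.82 CPM per kilobase. Sst, which encodes somatostatin, led at 376 ± 7.6, followed by Npy, for neuropeptide Y, at 105 ± 2.5 and Cck, for cholecystokinin, at 21.4 ± 0.26. Bdnf, the neurotrophin gene, stood at 2.18 ± 0.013. Tac2, Pomc, Crh, Cartpt, Trh and Gal had 32, 16, 9, 8, 8 and 4 reads in all and lay below 1 CPM in each library. Per kilobase of exon, Npy stood close to Pcsk1n, within the spread of both in recovered reads (SD 8.3 and 16). Without length scaling Npy stood well below it, at 59.6 CPM against 235, since its exons sum to 566 bases and those of Pcsk1n to 2193. Each of the 20 precursors stood below Cpe.

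**Figure D3:**
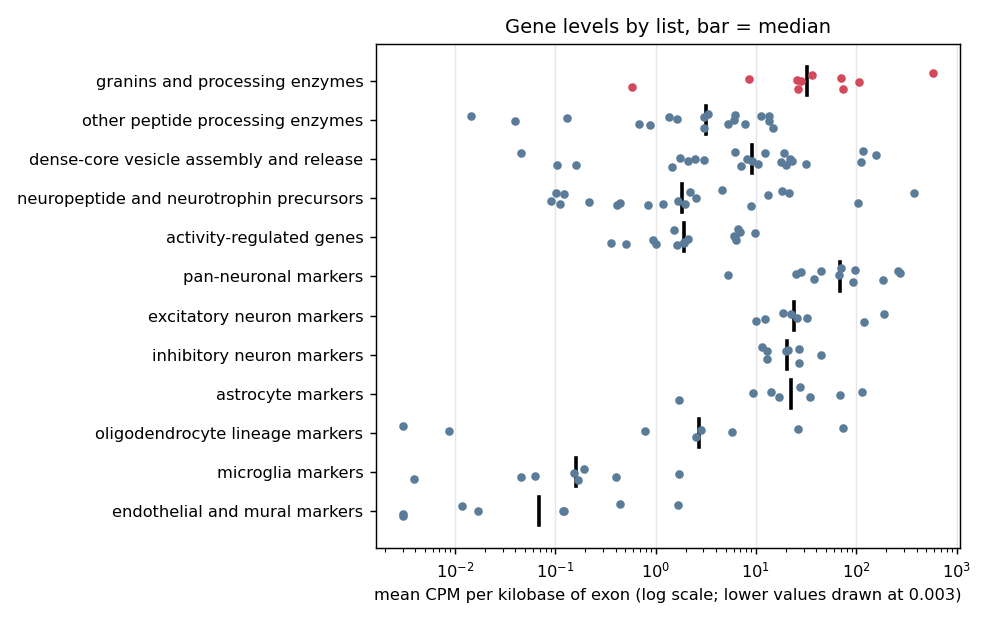
Mean level of each gene by list, in CPM per kilobase of exon on a log scale, with 1 point per gene and a bar at the list's median; values under 0.003 are drawn there. The granins and processing enzymes have a median of 32.2, the other processing enzymes of 3.17 and the peptide precursors of 1.82.

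The libraries of the group were then compared gene by gene, by a Pearson chi-square test of recovered reads over the 15131 genes that averaged at least 10 reads, with Benjamini-Hochberg adjustment over all of them. Beyond counting error, 4 of the 10 genes varied (Pcsk1n, Vgf, Cpe and Pcsk1), against 8.62% of all genes tested. Since abundant genes pass such a test more easily, the spread was also set against genes of like abundance. By that test only Pcsk1n varied, 1 of 10 against 0.357% of all genes tested.

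Pcsk1n was lowest in replicate 2 by −0.38 log2 units against the mean of the other libraries, in reads scaled by library size. Its CV was 14.8%, against 1.5% from counting error alone, and its highest library exceeded its lowest 1.34-fold. The adjusted p of the chi-square test was 9.21e-40 against counting error and 2.67e-06 against genes of like abundance. The call rested on replicate 2: without that library the adjusted p values were 0.257 and 0.975, whereas without replicate 1 or 3 the second was 0.001 and 0.000104. On the opposite strand lies Eras, whose exons overlap those of Pcsk1n by up to 135 bases and which had no reads.

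Vgf was lowest in the same library, at −0.23 log2 units, with a CV of 9.08% against 2.63% from counting error. Its adjusted p in the chi-square test was 0.00028 against counting error and 0.403 against genes of like abundance. Pcsk1 was highest there, at 0.80 log2 units, with adjusted p values of 0.0139 and 0.396. Cpe had the smallest relative difference of those called, with a CV of 1.74% and adjusted p values of 0.00425 and 0.998. The other 6 genes had adjusted p values of 0.197 (Scg2) to 0.917 (Pcsk2) against counting error, and CVs of 1.29% to 4.41%. In all, 6 of the 10 genes were lowest in replicate 2, against 37.0% of all genes tested.

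Over all genes, the median log2 difference of replicate 2 from the other libraries ran from 0.068 in the lowest of 10 equal bins of GC content to −0.097 in the highest. Vgf (64.1% GC) is in the highest bin and lay further from 0 than that median. Chga (58.4%) is in the same bin, at −0.03. Pcsk1 (40.6%), at 0.80, is in the lowest bin. Pcsk1n (57.3%), at −0.38, is in a bin with a median of −0.061, and Scg3 (46.5%), at −0.07, in one with a median of 0.019. With library sizes fitted within such bins, an alternative chosen after the data were seen, 1 of the 10 genes varied beyond counting error, against 5.12% of all genes tested. The adjusted p of the chi-square test for Vgf, Pcsk1 and Cpe was then 0.153, 0.0523 and 0.087, with unadjusted p of 0.0149, 0.00271 and 0.0059. Of the 10 genes, 6 had an unadjusted p under 0.05 with and without the bins. The share of all genes under that unadjusted threshold is not given here, so the count says nothing particular of these genes. With the bins, the adjusted chi-square p of Pcsk1n was 1.78e-27 against counting error and 6.14e-06 against genes of like abundance. Replicate 2 also had the largest share of mitochondrially encoded reads, 8.25% against 7.13% and 7.61%. The part of base composition and of these reads in the differences of single genes was not tested beyond the bins.

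**Figure D4:**
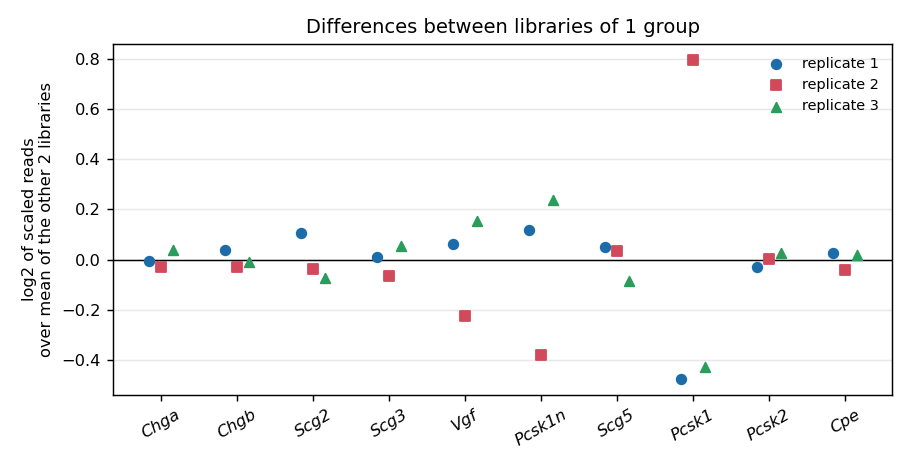
Difference of each library from the mean of the other 2 libraries, in log2 of recovered reads scaled by library size, for the 10 genes. Symbols are the 3 libraries; Pcsk1n at −0.38 and Vgf at −0.23 lie low in replicate 2, and Pcsk1 at 0.80 lies high.

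**Figure D5:**
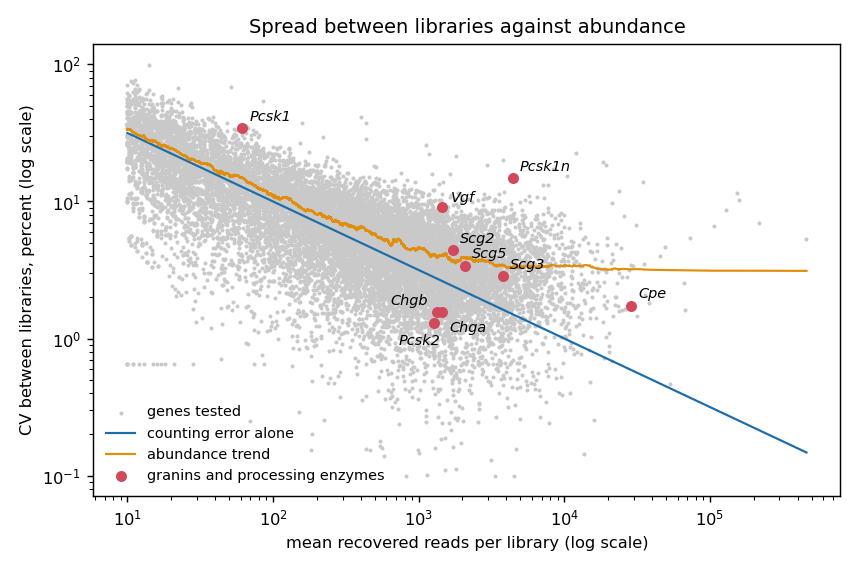
CV between the 3 libraries against mean recovered reads, both on log scales. Grey points are the 15131 genes tested, the lines are the spread from counting error alone and the abundance trend over all genes, and red points are the 10 genes; Pcsk1n, at 14.8%, stands farthest above the trend among them.

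Pcsk2 shares up to 260 exonic bases with the antisense gene Pcsk2os1, which had 82 reads in all, and 77 with Pcsk2os2, which had 7. The sources used here do not state a strand setting for the counting, so reads of Pcsk2 and of these partners cannot be told apart.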

How the data were processed

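The authors deposited log2 expression, 1 value for each gene in each library. FastQC, HISAT2, featureCounts, DESeq2 and GRCm38 are named per the submitters' processing notes; their versions and settings are not stated in the sources used here. A shrunken negative binomial log model described the values. Inverting it, with 6 parameters shared by all genes, recovered whole reads. Of 67797 values tested, 99.9% lay no more than 0.1 from an integer (20% if spread evenly). Refitting gave the deposited values to within 0.00014. Neither check covered the 3097 genes with 1 read in all, whose read was given to the library with the highest value. The refit also left out other genes with very few reads. The recovery and the variation test were also run on reads simulated under the same model. Such a run cannot show that the deposited values follow that model.

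CPM is 2 to the deposited value over its sum in the library, with rows at 0 in all 3 libraries (21897) set to 0, per 1000000. Lengths are unions of exons in GENCODE M21. Pair ratios are log2 differences within a library with 0.5 CPM per kilobase added. Variation between libraries was tested across all genes with median-of-ratios size factors and a chi-square statistic on 2 degrees of freedom, alone and divided by 1 plus the mean reads times a dispersion taken from the running median over 501 genes of like abundance. The form of this trend was revised once after its calls had been seen: dividing by the running median itself had held the scale flat for the most abundant genes. The earlier form called 63 genes and the reported form 54, with Pcsk1n the 1 of the 10 genes called by either. No model of group differences was fitted, since there is 1 group. Each pair of libraries differed beyond sampling noise (chi-square per gene 2.24 to 3.82), so all 3 were counted.

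The genes, 14 pairs and 11 other lists were chosen with earlier results of these data known. Named genes were the 10 genes, both genes of each pair, the 3 highest of each pathway list, list members below 1 CPM, the highest of each marker list and the neighbours in level; the other convertases, Rab27b, Bdnf, Kdr, Cldn5, Kcnj8 and the antisense and overlapping genes were named after their values were seen. The values of 1 list gene are not reported here. Python 3.11.15, numpy 2.4.6, scipy 1.17.1 and pandas 2.3.3 were used.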

Additional observations from a re-analysis of the deposited data

How the results depend on the processing

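Other values were computed for the 10 levels, 14 pair ratios, the share, the detection counts and the variation between libraries. Of the pair ratios, only other lengths and recovered reads could turn a direction, since an added constant or a left-out library cannot turn one that is the same in 3 of 3 libraries. Of 56 such values, 53 kept 1 direction in 3 of 3 libraries. Vgf over Chga without length scaling was −0.01 with libraries on both sides, and Scg2 over Chga turned to −0.16 with transcript length and to −0.16 with coding length, which follows from the length of Chga (2756 exonic and 1883 transcript bases). With 5 CPM per kilobase added, Pcsk2 over Pcsk1 was 1.29 and Cpe over Pcsk1 6.73. Recovered reads changed the 10 levels by at most 1.003-fold, and a total without mitochondrially encoded genes raised each 1.083-fold and the share from 0.246% to 0.267%. All 10 genes stayed detected in recovered reads and without any 1 library. At 10 CPM 9 did, all but Pcsk1, and the share of all genes at that threshold is not given here. Genes varying beyond counting error numbered 1304, 775 with GC bins (chosen after the data were seen), and 334, 835 and 1187 without replicates 2, 3 and 1; beyond the abundance trend they numbered 54, 63 with the earlier form of the trend, replaced after its calls were seen, and 8, 17 and 28 without replicates 1, 2 and 3. Of the 10 genes, 4 varied beyond counting error, 1 with GC bins, and 0 to 4 without 1 library, the 0 being without replicate 2; beyond the trend 1 varied, Pcsk1n, also with the earlier form (adjusted p of the chi-square test 1.78e-06 against 2.67e-06), and 0 to 1 without 1 library. Without replicate 2, 3 of the 10 had an unadjusted chi-square p under 0.05 against counting error and 1 against the trend. No share of all genes is given for these unadjusted counts, so they say nothing particular of the 10 genes. The cause of these changes was not tested. No paired analysis was possible because there is 1 group. Depth limits Pcsk1 most, with 49 to 85 reads per library.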

Other observations

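Genes induced by neuronal activity, a class to which Vgf and Scg2 are often counted, were present at low to moderate levels in these cultures. No silenced or stimulated group was at hand for comparison. All 15 activity-regulated genes were detected, with a median of 1.93 CPM per kilobase. The nuclear receptor gene Nr4a2 led at 9.87 ± 0.045, followed by Homer1, which encodes a synaptic scaffold, at 6.87 ± 0.11 and the transcription factor gene Egr1 at 6.64 ± 0.033. Fos stood at 6.24 ± 0.027, Arc at 2.10 ± 0.012 and Npas4 at 1.02 ± 0.007, with SDs of 0.16, 0.099 and 0.11 in recovered reads. In the chi-square test of recovered reads, 0 of the 15 varied between libraries beyond counting error, against 8.62% of all genes tested. At that share, 0 of 15 says nothing particular of this class. Egr4 had an unadjusted p of 0.022 in that test, with an adjusted p of 0.147.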
